A study of Homo sapiens with 6 samples.

Results

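Interferon-stimulated genes are the genes that a cell switches on when interferon reaches it. This account follows 47 genes listed under that name in human bronchial epithelial cells (HBECs), an immortalized airway cell line. The list also holds *IFNAR1* and *IFNAR2*, the genes of the receptor itself, which are counted among the 47. The 47 were taken by name from a list of gene symbols, out of 61228 gene names in the deposited count table. All 47 were present and all 47 passed the filter on low counts, as did 15373 genes overall. RNA-seq was available for 6 libraries of wild-type (WT) HBECs, and every library had been exposed to cockroach extract (CRE), an allergen preparation, for 24 h. In 3 libraries the cells received CRE alone, and in the other 3 they also received VAF347, a small-molecule agonist of the aryl hydrocarbon receptor (AhR), which by the study's methods was given before CRE. The comparison therefore asks how these genes differed when the agonist was added to cells that all had the allergen. Cells without CRE and cells with VAF347 alone were not analysed here, so no value here gives the level before the allergen. The 6 libraries come from a single line, and nothing in the sources says whether replicates were separate cultures, so the p-values measure the spread between these libraries, which may be technical.

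Type I interferons bind the receptor pair IFNAR1 and IFNAR2, whose kinases JAK1 and TYK2 phosphorylate STAT2 among other targets. STAT2 and IRF9 are parts of the complex ISGF3, which binds a DNA element called the ISRE in the promoters of antiviral genes. Airway epithelium uses this system as an early defence against respiratory viruses, and several of its own parts (*STAT2*, *IRF7*, *IRF9*, *IFIH1*, *USP18*) are themselves interferon-stimulated. AhR is a ligand-activated factor that binds, with its partner ARNT, a different element called the XRE. One of its target genes is *TIPARP*, an ADP-ribosyltransferase known to restrain type I interferon production.

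The promoters were examined for these elements. A RefSeq table (GRCh38.p14) held 1 promoter window, from 250 bases before to 50 bases after the start, for 37 of the 47 genes. The windows were searched on both strands for an ISRE core, written here as GAAA, any 2 bases and a second GAAA. The 150 bases before the RefSeq start are printed 5′ to 3′ on the gene's strand, with each ISRE core that lies wholly within them in capitals. *IFIH1* and *IFI6* also have cores that begin before the printed stretch and run into it, and these are left in lower case. The cores appear as TTTC repeats where they lie on the other strand. *IFIH1* (chr2:162318685-162318834, minus strand), *IFI6* (chr1:27672193-27672342, minus strand), *IFI44* (chr1:78649639-78649788, plus strand) and *EPSTI1* (chr13:42992242-42992391, minus strand) are shown because they fell with VAF347, carry the core and have at most 30 annotated exon bases in this stretch. *CMPK2* (chr2:6866636-6866785, minus strand) is shown because it fell and its window holds no core. *ISG15* (chr1:1013347-1013496, plus strand) and *IFITM3* (chr11:320861-321010, minus strand) are shown because they carry the same core and did not pass the test.
IFIH1: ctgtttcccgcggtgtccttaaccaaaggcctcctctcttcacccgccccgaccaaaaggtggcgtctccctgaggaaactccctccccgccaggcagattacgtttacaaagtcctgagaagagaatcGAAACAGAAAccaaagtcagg
IFI6: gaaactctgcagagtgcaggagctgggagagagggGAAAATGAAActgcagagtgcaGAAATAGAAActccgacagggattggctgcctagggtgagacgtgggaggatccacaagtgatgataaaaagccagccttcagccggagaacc
IFI44: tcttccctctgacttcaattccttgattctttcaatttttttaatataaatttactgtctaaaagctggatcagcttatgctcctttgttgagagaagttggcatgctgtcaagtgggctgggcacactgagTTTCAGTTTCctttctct
EPSTI1: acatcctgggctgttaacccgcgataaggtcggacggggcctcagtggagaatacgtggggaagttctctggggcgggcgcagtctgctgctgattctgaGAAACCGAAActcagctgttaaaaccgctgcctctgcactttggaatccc
CMPK2: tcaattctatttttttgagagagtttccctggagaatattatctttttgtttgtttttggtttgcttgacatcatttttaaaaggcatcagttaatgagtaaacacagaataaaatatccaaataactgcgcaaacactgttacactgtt
ISG15: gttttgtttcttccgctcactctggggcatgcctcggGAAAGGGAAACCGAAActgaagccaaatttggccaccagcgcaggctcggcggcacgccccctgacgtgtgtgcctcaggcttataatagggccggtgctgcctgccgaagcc
IFITM3: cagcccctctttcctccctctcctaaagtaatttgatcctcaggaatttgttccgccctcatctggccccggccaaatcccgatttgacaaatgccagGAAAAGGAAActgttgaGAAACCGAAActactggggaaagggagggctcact

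The ISRE core was found in 23 of the 37 windows (62.2%), against 3.57% of all 35114 promoters in the table and 2.78% of the promoters of genes tested here. It was in 8 of 11 windows of genes that fell (72.7%) and in 15 of 26 windows of those that were not called (57.7%). The median log2 fold change was -0.40 over the 23 genes with the core and -0.26 over the 14 without it. The 150 bases before the RefSeq start lay wholly in annotated exon (GENCODE v44) for 3 of the 23 and for 7 of the 14, *OAS1* and *RSAD2* among the latter, so a missing core says only that these letters are not in that window. The GAS core TTCNNNGAA, where N is any base, is bound by STAT dimers and was in 29.7% of the members' windows and in 7.66% of all promoters. The XRE core GCGTG was in 7 of the 37 windows (18.9%), against 36.5% of all promoters and 50.9% of those of genes tested. None of the 11 windows of genes that fell held it. A match to these letters is a description of the window and was not tested as a binding site.

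The deposited libraries held 8873160 to 10750283 estimated counts, and CPM values (counts per 1000000 counts) were computed from them after TMM scaling. Replicates of a group differed by more than sampling noise, so each was kept as 1 sample. Epithelial markers were present in every library, as the label says, and the 6 markers summed to 3310 to 4106 TPM (transcripts per 1000000) with CRE and 3332 to 3435 with CRE + VAF347. Of these 6, *KRT19* was lower with VAF347 (log2 fold change -0.38, SE 0.08, adjusted p = 0.0265). *KRT5* did not overlap and was lower without passing the test (log2 fold change -0.37, SE 0.11, adjusted p = 0.0773). The other 4 had an adjusted p of 0.173 or more. Among these, *CDH1* was lower without overlap (log2 fold change -0.18) and *KRT18* higher without overlap (log2 fold change 0.11). The 7 leukocyte markers summed to 3.23 to 4.25 and 2.59 to 4.17 TPM, with the B-cell marker *MS4A1* and the plasmacytoid dendritic cell markers *CLEC4C* and *LILRA4* at 0 in every library. The 4 fibroblast markers summed to 19.1 to 20.5 TPM with CRE and 14.8 to 18.9 with CRE + VAF347. Most of this was *COL1A1* (mean 17.7 TPM), with *PDGFRB* at a mean of 0.556 TPM and *DCN* and *LUM* at 0 in every library. The 3 endothelial markers summed to 7.31 to 7.92 TPM with CRE and 3.95 to 4.67 with CRE + VAF347. The part of these epithelial and endothelial markers in the results was not tested. The AhR target *CYP1A1*, an oxidase of xenobiotics, had 6, 8 and 5 counts with CRE and 454, 412 and 460 with CRE + VAF347 (log2 fold change 6.20, SE 0.17, adjusted p = 2.83e-09).

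Most of the interferon-stimulated genes had lower levels with VAF347 than without it, and some of them passed the test. By edgeR's quasi-likelihood test, with an adjusted p under 0.05 and a log2 fold change below -0.5, 15 of the 47 fell (31.9%), against 1.71% of all genes tested. Of the 47, 0 rose, by this test or by DESeq2, and 1 (*IRF1*) was higher at an unadjusted p under 0.05, against 8.87% of all genes at that level. Of all genes tested, 0.501% rose. The 15 were *IFIH1*, *DDX60*, *IFIT1*, *OAS1*, *OAS2*, *MX1*, *MX2*, *GBP1*, *GBP2*, *RSAD2*, *CMPK2*, *TRIM22*, *IFI6*, *IFI44* and *EPSTI1*. A further 3, *HERC5*, *HERC6* and *SP110*, had an adjusted p under 0.05 at a smaller fold, which makes 18 of 47 (38.3%), against 4.07% of all genes in that direction. The log2 fold change was negative for 44 of the 47 (93.6%, against 47.9% of all genes) and positive for *IFNAR1*, *IFNAR2* and *IRF1*. Its median was -0.39, against 0.01 over all genes, and it ran from -1.17 for *IFI44L* to 0.16 for *IRF1*. All 3 CRE + VAF347 libraries lay below all 3 CRE libraries for 29 of the 47 genes (61.7%, against 14.8% of all genes), which include all 15 that fell. They lay above for 2 (12.5% of all genes) and overlapped for 16. In bulk RNA, fewer cells expressing a gene and less of its RNA per cell cannot be told apart.

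**Figure D1:**
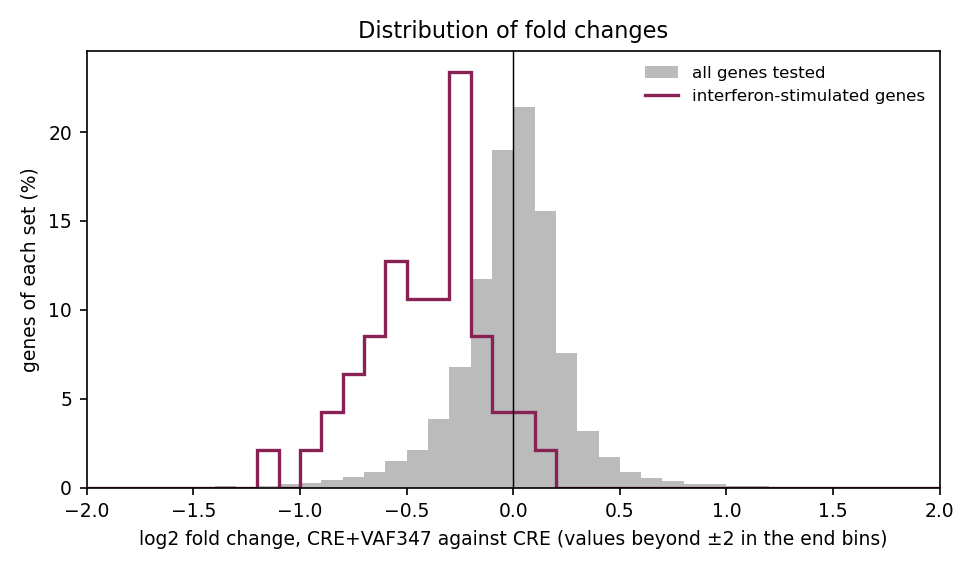
Histogram of the log2 fold change (CRE + VAF347 against CRE, x axis) for the 15373 genes tested (grey fill) and the 47 interferon-stimulated genes (outline), each as a percent of its set (y axis). The outline is centred near its median of -0.39 and ends at 0.16, while the grey distribution is centred near 0.01.

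The number of genes called depended on which libraries were included and on the measure. Without CRE replicate 2, CRE + VAF347 replicate 1 or CRE + VAF347 replicate 3 the count of genes that fell was 7, 7 and 4, and without CRE replicate 1 it was 20. Of all genes tested, 1.28%, 1.19%, 0.918% and 1.53% fell in these settings, in the same order, against 1.71% with all libraries. With limma on log2(TPM + 1), *IFIT1* and *IFI44* were called, and 0.313% of all genes fell. By that fit 31 of the 47 genes were lower at an unadjusted p under 0.05. With limma and no filter on low values 0 were called (0.042% of all genes fell) and 30 were lower at an unadjusted p under 0.05. The share of all genes at that unadjusted level is not given on the TPM scale, so the limma counts cannot be set against it. The members' median log2 fold change on that scale was -0.36. By edgeR, 33 genes were lower at an unadjusted p under 0.05 (70.2%, against 11.9% of all genes). *IFIT1*, *GBP2* and *EPSTI1* were called whichever single library was left out. The log2 fold change was negative in every setting for 41 of the 47 genes. An exact permutation test of 3 against 3 libraries cannot give a p below 0.1, so the calls rest on the fit across all genes.

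**Figure D2:**
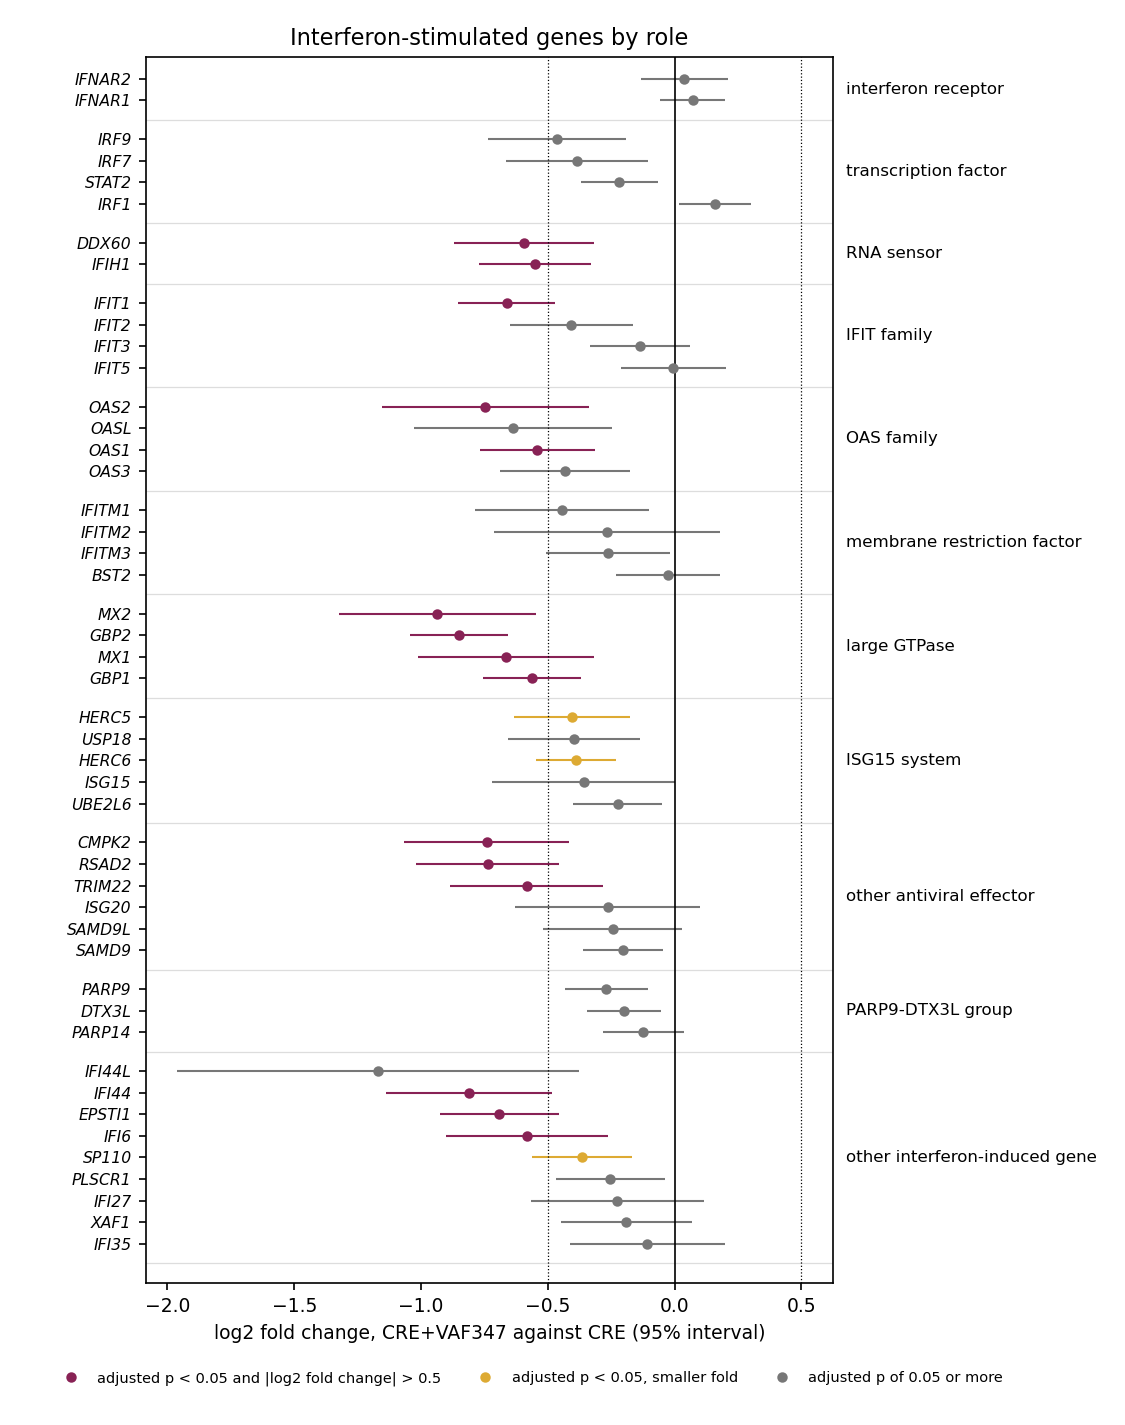
Log2 fold change with its 95% interval (x axis) for each of the 47 genes (y axis), grouped by role, with dotted lines at the fold threshold of 0.5 in each direction. The 4 large GTPases and both RNA sensors lie beyond -0.5 and passed the test, and the 2 receptor genes lie at 0.04 and 0.07.

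The receptor genes did not share the lower levels. *IFNAR1*, the low-affinity chain of the type I interferon receptor, had 82.8, 83.8 and 79.7 CPM in the CRE libraries and 86.5, 88.2 and 84.1 CPM with VAF347 added. The log2 fold change was 0.07 (95% interval -0.06 to 0.20, adjusted p = 0.532). The groups did not overlap, yet their means were close, at 82.1 ± 2.12 and 86.3 ± 2.06 CPM (SD, n = 3). *IFNAR2*, the chain that binds interferon first, overlapped between groups (log2 fold change 0.04, interval -0.13 to 0.21). Its reads can also be assigned to the readthrough gene *IFNAR2-IL10RB*.

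None of the 4 transcription factor genes passed the test, although 3 of them did not overlap between groups and were lower. *IRF9*, the DNA-binding part of ISGF3, came nearest, with 79.3, 109 and 86.8 CPM under CRE and 67.9, 75.6 and 56.4 under CRE + VAF347 (log2 fold change -0.46, SE 0.12, adjusted p = 0.0559). *IRF7*, which amplifies interferon production, had a log2 fold change of -0.38 (adjusted p = 0.109). *STAT2*, the ISGF3 subunit that carries the activation domain, had a log2 fold change of -0.22 (adjusted p = 0.101). *IRF1*, a factor also induced by interferon gamma and by NF-κB, was the most abundant of the 4 at 225 TPM and was higher with VAF347 without passing the test. It had 223, 244 and 255 CPM with CRE and 271, 273 and 263 with CRE + VAF347, and all CRE + VAF347 libraries were above all CRE libraries (log2 fold change 0.16, SE 0.06, adjusted p = 0.189). *IRF9* was called lower without CRE replicate 1 (log2 fold change -0.56, adjusted p = 0.0375) or 3 (log2 fold change -0.51, adjusted p = 0.0123), but not without CRE replicate 2 (log2 fold change -0.32, adjusted p = 0.159). It also had an adjusted p under 0.05 in DESeq2's Wald test (log2 fold change -0.46, adjusted p = 0.0118). Without CRE replicate 3, *IRF7* (log2 fold change -0.44, adjusted p = 0.0359) and *IRF1* (log2 fold change 0.20, adjusted p = 0.0247) passed the adjusted p below the fold threshold.

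Both RNA sensors fell. *IFIH1* (ENSG00000115267.10, chromosome 2, 162267074 to 162318684, minus strand, GRCh38) encodes MDA5, the cytosolic sensor of long double-stranded RNA. It had 64.7, 78.6 and 81.9 CPM under CRE and 52.7, 55.8 and 45.5 when VAF347 was added, with means of 75.1 ± 9.11 and 51.3 ± 5.296 CPM (SD, n = 3; log2 fold change -0.55, SE 0.10, adjusted p = 0.00949). *DDX60*, a helicase that acts beside these sensors, had 98.4, 128 and 133 CPM under CRE and 81.2, 91.2 and 65.9 CPM with the agonist (log2 fold change -0.59, SE 0.13, adjusted p = 0.0213). In both genes the highest CRE + VAF347 library was below the lowest CRE library, and replicate 3 of CRE + VAF347 was the lowest of all. Leaving out 1 library in turn gave *IFIH1* log2 fold changes from -0.65 to -0.47 and adjusted p-values up to 0.0548, the call being lost without CRE replicate 3 or CRE + VAF347 replicate 3. For *DDX60* it gave log2 fold changes from -0.72 to -0.48 and adjusted p-values up to 0.0933, the call being lost without CRE replicate 2 or CRE + VAF347 replicate 1 or 3.

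The IFIT family, whose member IFIT1 binds viral RNA that lacks the host's cap modification, had 1 of its 4 genes pass the test. *IFIT1* (ENSG00000185745.10, chromosome 10, 89392546 to 89406487, plus strand) fell from 83.3 ± 8.09 to 52.7 ± 4.35 CPM (SD, n = 3). Its CRE libraries had 75.2, 91.3 and 83.3 CPM and its CRE + VAF347 libraries 54.6, 55.7 and 47.7 (log2 fold change -0.66, SE 0.09, adjusted p = 0.00147). It was called in 14 of 15 alternative settings, more than any other of the 47. *IFIT2* was lower in every CRE + VAF347 library and did not pass the test (log2 fold change -0.41, SE 0.11, adjusted p = 0.0569), although it was called without CRE replicate 1 (log2 fold change -0.52, adjusted p = 0.01299). *IFIT3*, the partner that stabilizes IFIT1 and the most abundant of the family (130.1 TPM), had 167, 204 and 197 CPM with CRE and 177, 187 and 154 with CRE + VAF347, with overlapping groups (log2 fold change -0.14, interval -0.33 to 0.06). *IFIT5* had a log2 fold change of -0.0042 (interval -0.21 to 0.20). The interval of *IFIT5* excludes a change as large as that estimated for *IFIT1*. The 4 genes lie within 1 cluster on chromosome 10, and *IFIT1*, *IFIT2* and *IFIT3* overlap *LIPA* on the other strand. The counting is not stated to use strand.

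The OAS family makes the second messenger 2-5A, which activates RNase L. *OAS1* fell from 90.2 ± 11.96 to 62.1 ± 6.58 CPM (SD, n = 3), with 79.2, 103 and 88.4 CPM under CRE and 63.5, 67.8 and 54.9 with VAF347 added (log2 fold change -0.54, SE 0.10, adjusted p = 0.0114). *OAS2* fell from 83.1 ± 20.7 to 49.7 ± 11.5 CPM, with 60.5, 101 and 87.8 CPM under CRE and 53.9, 58.4 and 36.7 CPM with the agonist (log2 fold change -0.75, SE 0.19, adjusted p = 0.04096). In *OAS2* the lowest CRE library lay only just above the highest CRE + VAF347 library. *OAS3*, the most abundant of the family at 110.3 TPM, had 392, 533 and 538 CPM with CRE and 367, 398 and 319.7 with CRE + VAF347, and CRE + VAF347 replicate 2 was above CRE replicate 1 (log2 fold change -0.43, SE 0.12, adjusted p = 0.0569). *OASL*, a relative without the enzyme activity, did not overlap between groups and did not pass the test (log2 fold change -0.64, SE 0.18, adjusted p = 0.0647). Leaving out 1 library in turn gave *OAS1* log2 fold changes from -0.62 to -0.44 and adjusted p-values up to 0.0682 and *OAS2* log2 fold changes from -0.93 to -0.57 and adjusted p-values up to 0.163. *OAS1* lost its call without CRE replicate 2 or CRE + VAF347 replicate 1 or 3, and *OAS2* without those or without CRE + VAF347 replicate 2. Without CRE replicate 1, *OAS3* (log2 fold change -0.57, adjusted p = 0.00793) and *OASL* (log2 fold change -0.77, adjusted p = 0.03805) were called too, and *OASL* was also called without CRE replicate 3 (log2 fold change -0.66, adjusted p = 0.0359).

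All 4 large GTPases fell, with a median log2 fold change of -0.76. *MX2* (ENSG00000183486.14, chromosome 21, 41361999 to 41409393, plus strand), known for blocking the nuclear entry of HIV, had 47.6, 77.5 and 70.6 CPM with CRE and 38.1, 38.4 and 26.2 with CRE + VAF347, means of 65.2 ± 15.6 and 34.2 ± 6.92 (SD, n = 3; log2 fold change -0.94, SE 0.18, adjusted p = 0.0109). *MX1*, the classical influenza restriction factor and the most abundant of the 4 (134 TPM), had 255, 392 and 352 CPM under CRE and 227, 240.3 and 164 CPM with the agonist, means of 333 ± 70.3 and 210.3 ± 41.1 (log2 fold change -0.66, SE 0.16, adjusted p = 0.0348). Both *MX* genes had their lowest CRE value in replicate 1 and their lowest CRE + VAF347 value in replicate 3. *GBP2* (ENSG00000162645.13, chromosome 1, 89106132 to 89150456, minus strand), a guanylate-binding protein that attacks intracellular bacteria and their vacuoles, had 43.2, 41.7 and 50.3 CPM with CRE and 24.4, 25.7 and 24.9 with CRE + VAF347, means of 45.1 ± 4.59 and 24.99 ± 0.636 (log2 fold change -0.85, SE 0.09, adjusted p = 0.000387). The 3 CRE + VAF347 libraries of *GBP2* lay close together, unlike its CRE libraries. *GBP1*, its paralog, had 75.9, 86.6 and 95.3 CPM under CRE and 61.6, 59.2 and 54.2 CPM with the agonist, means of 85.95 ± 9.74 and 58.3 ± 3.78 (log2 fold change -0.56, SE 0.09, adjusted p = 0.00439). Leaving out 1 library in turn gave *MX1* log2 fold changes from -0.82 to -0.52 and adjusted p-values up to 0.134, lost without CRE replicate 2 or any single CRE + VAF347 library. It gave *MX2* log2 fold changes from -1.12 to -0.78 and adjusted p-values up to 0.06002, lost without CRE replicate 2 or CRE + VAF347 replicate 3, and *GBP1* log2 fold changes from -0.64 to -0.48 and adjusted p-values up to 0.0321, below the fold threshold without CRE replicate 3. *GBP2* kept its call, with log2 fold changes from -0.90 to -0.76 and adjusted p-values up to 0.00491. *GBP2* overlaps *GBP7* on its own strand, and *MX1* overlaps *TMPRSS2* on the other.

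**Figure D3:**
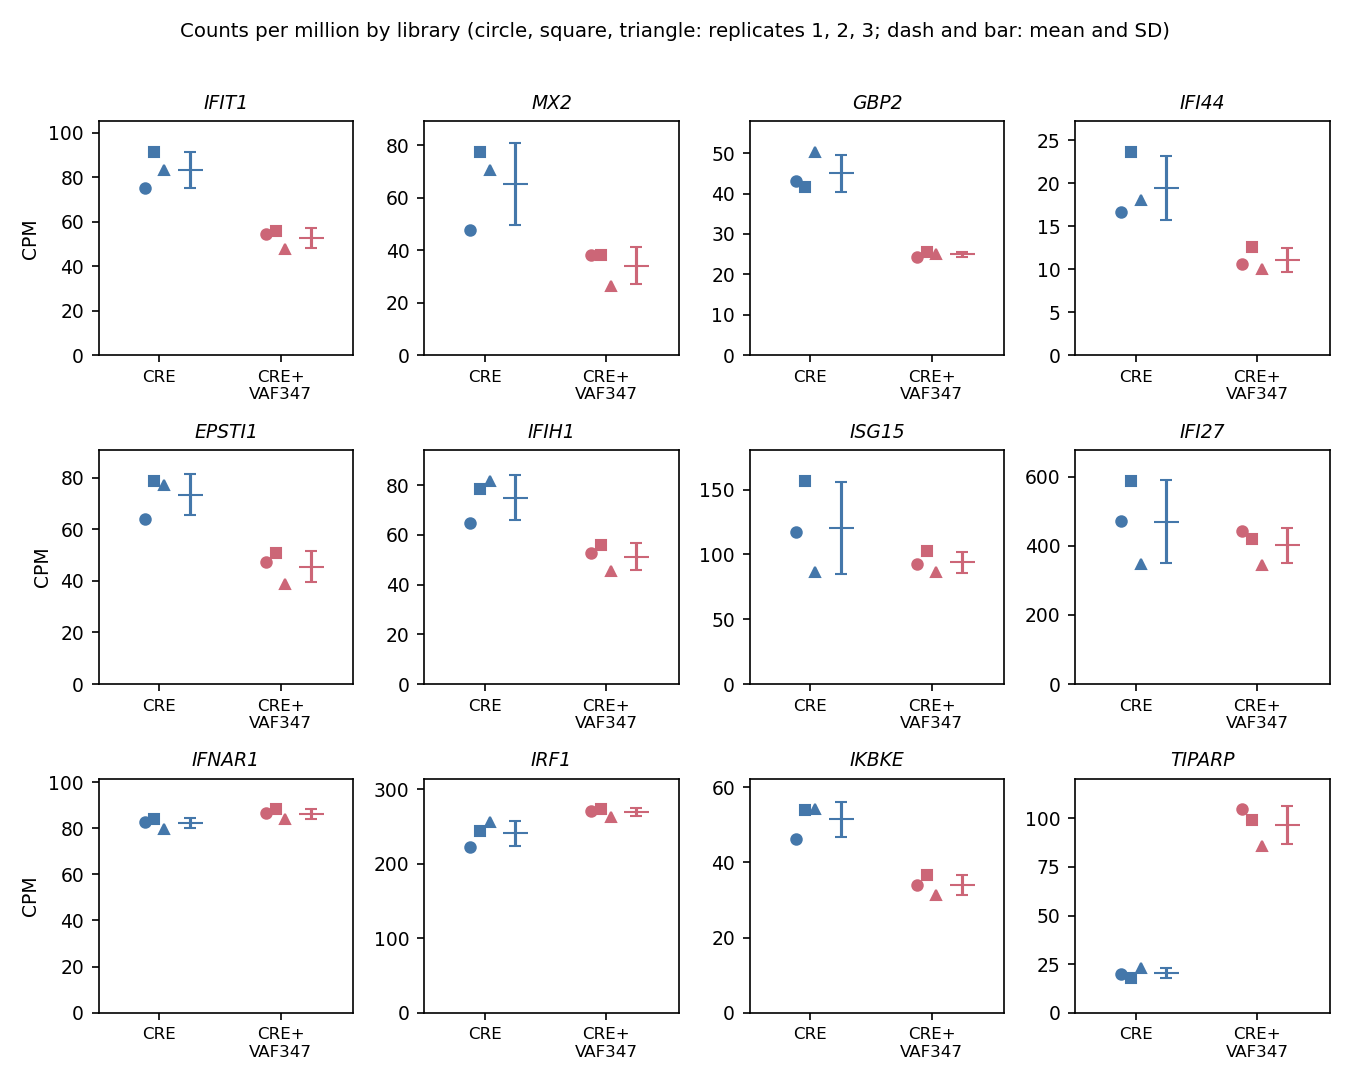
CPM (y axis, from 0) in each of the 6 libraries for 12 genes, with the 3 CRE libraries in blue and the 3 CRE + VAF347 libraries in red. Symbols mark replicates 1, 2 and 3, and the dash with its bar gives the mean and SD. *IFIT1*, *MX2*, *GBP2*, *IFI44*, *EPSTI1*, *IFIH1* and *IKBKE* do not overlap between groups and are lower with VAF347, and *ISG15* and *IFI27* overlap. *IFNAR1*, *IRF1* and *TIPARP* do not overlap and are higher, but of these only *TIPARP* passed the test.

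The membrane restriction factors, which block virus entry or release, did not pass the test in any of the 4 genes. *IFITM3*, which stops fusion of virus with the endosome (647 TPM), had 171, 213 and 153 CPM with CRE and 149, 164 and 135 with CRE + VAF347, with overlapping groups (log2 fold change -0.26, interval -0.51 to -0.02, adjusted p = 0.208). The log2 fold change was -0.44 for *IFITM1* (adjusted p = 0.134) and -0.27 for *IFITM2* (adjusted p = 0.497). These 3 are close paralogs, so the division of reads among them is uncertain. *BST2*, or tetherin, which holds budding virus at the cell surface, had a log2 fold change of -0.03 (interval -0.23 to 0.18). Without CRE replicate 3, *IFITM1* was called (log2 fold change -0.57, adjusted p = 0.00801) and *IFITM3* passed the adjusted p (log2 fold change -0.37, adjusted p = 0.0117). Without CRE replicate 2 neither did (*IFITM1* log2 fold change -0.24, adjusted p = 0.355, *IFITM3* log2 fold change -0.12, adjusted p = 0.512). With the replicate number as a block, *IFITM1* passed the adjusted p (log2 fold change -0.44, adjusted p = 0.0209).

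The ISG15 system attaches the ubiquitin-like protein ISG15 to other proteins. Its 5 genes had log2 fold changes between -0.40 and -0.22, and 4 of them did not overlap between groups. *HERC6*, a HECT-type ligase, had 53.1, 57.8 and 59.2 CPM with CRE and 43.3, 45.1 and 41.7 with CRE + VAF347 (log2 fold change -0.39, SE 0.07, adjusted p = 0.00977), and leaving out 1 library in turn gave log2 fold changes from -0.43 to -0.36 and adjusted p-values up to 0.06002. *HERC5*, the ligase for ISG15 in human cells, had 34.8, 35.7 and 41.4 CPM under CRE and 28.4, 31.6 and 24.7 CPM with the agonist (log2 fold change -0.40, SE 0.10, adjusted p = 0.0477). Leaving out any 1 library took the adjusted p of *HERC5* above 0.05, with log2 fold changes from -0.50 to -0.32 and adjusted p-values up to 0.183. *USP18*, which removes ISG15 and also blocks IFNAR2 signalling, had a log2 fold change of -0.40 (adjusted p = 0.0807). *UBE2L6*, the conjugating enzyme, had a log2 fold change of -0.22 (adjusted p = 0.1402). *ISG15* itself, at 286 TPM, had 117, 157 and 86.5 CPM with CRE and 92.4, 102 and 86.7 with CRE + VAF347. Its CRE replicate 3 lay level with the lowest CRE + VAF347 library and CRE replicate 2 stood above all others (log2 fold change -0.36, SE 0.16, adjusted p = 0.245, interval -0.72 to 0.0037). *ISG15* was called without CRE replicate 3 (log2 fold change -0.55, adjusted p = 0.00154) and not without CRE replicate 2 (log2 fold change -0.12, adjusted p = 0.639). *USP18* was called without CRE replicate 1 (log2 fold change -0.50, adjusted p = 0.0317), and *UBE2L6* passed the adjusted p without CRE replicate 3 (log2 fold change -0.27, adjusted p = 0.0246).

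Of 6 other antiviral effectors, 3 fell. *RSAD2*, or viperin, which makes a chain-terminating nucleotide, had 22.9, 31.2 and 29.6 CPM with CRE and 17.2, 18.3 and 14.9 with CRE + VAF347, means of 27.9 ± 4.42 and 16.8 ± 1.75 (SD, n = 3; log2 fold change -0.74, SE 0.13, adjusted p = 0.00718). *CMPK2*, a mitochondrial nucleotide kinase encoded beside it, had 25.4, 36.9 and 34.4 CPM under CRE and 19.6, 22.3 and 16.2 CPM with the agonist, means of 32.2 ± 6.06 and 19.3 ± 3.07 (log2 fold change -0.74, SE 0.15, adjusted p = 0.0156). *RSAD2* and *CMPK2* overlap on opposite strands of chromosome 2, so part of the reads may be shared. *TRIM22*, a restriction factor that overlaps *TRIM5* on the other strand, had 34.9, 53.4 and 47.8 CPM under CRE and 29.7, 33.3 and 27.9 CPM with the agonist, means of 45.3 ± 9.48 and 30.3 ± 2.75 (log2 fold change -0.58, SE 0.14, adjusted p = 0.0324). Leaving out 1 library in turn gave *RSAD2* log2 fold changes from -0.86 to -0.65 and adjusted p-values up to 0.0501, lost without CRE + VAF347 replicate 3. It gave *CMPK2* log2 fold changes from -0.88 to -0.63 and adjusted p-values up to 0.0852, lost without CRE replicate 2 or CRE + VAF347 replicate 1 or 3. It gave *TRIM22* log2 fold changes from -0.74 to -0.45 and adjusted p-values up to 0.149, lost without CRE replicate 2 or any single CRE + VAF347 library. *SAMD9*, a poxvirus restriction factor and the most abundant of this group (63.2 TPM), had 201, 223 and 219.6 CPM with CRE and 195, 194 and 170.1 with CRE + VAF347, close but not overlapping (log2 fold change -0.20, SE 0.07, adjusted p = 0.1301). *SAMD9L* had a log2 fold change of -0.24 (adjusted p = 0.295), and *ISG20*, an exonuclease, had a log2 fold change of -0.26 (adjusted p = 0.4000).

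The ADP-ribosylation group of *PARP9*, its partner *DTX3L* and *PARP14* had a median log2 fold change of -0.20, the negative median nearest 0 among the role groups, and none of the 3 passed the test. *PARP14*, the most abundant (104 TPM), had 364, 404 and 415 CPM with CRE and 379, 374 and 333 with CRE + VAF347, with overlapping groups (log2 fold change -0.12, SE 0.07, adjusted p = 0.369). *PARP9* had a log2 fold change of -0.27 (adjusted p = 0.0616) and *DTX3L* had a log2 fold change of -0.20 (adjusted p = 0.112). *PARP9* passed the adjusted p without CRE replicate 1 (log2 fold change -0.33, adjusted p = 0.03195). Both genes were lower in every CRE + VAF347 library, and the 2 genes overlap at their starts on opposite strands.

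Among 9 further interferon-induced genes, 3 fell and 1 more had an adjusted p under 0.05 at a smaller fold. *IFI44*, a cytoplasmic protein that can hold back cell division, had 16.7, 23.6 and 18.04 CPM with CRE and 10.6, 12.6 and 10.1 with CRE + VAF347, means of 19.5 ± 3.696 and 11.1 ± 1.35 (SD, n = 3; log2 fold change -0.81, SE 0.15, adjusted p = 0.009603). *EPSTI1*, first described as an epithelial gene induced by stroma, had 64.2, 78.9 and 77.1 CPM under CRE and 47.3, 50.7 and 38.7 CPM with the agonist, means of 73.4 ± 8.02 and 45.6 ± 6.17 (log2 fold change -0.69, SE 0.11, adjusted p = 0.00412). *IFI6*, a mitochondrial and endoplasmic reticulum protein that opposes cell death, had 179, 253 and 160.1 CPM under CRE and 138, 143 and 115 CPM with the agonist, means of 198 ± 49.2 and 132 ± 14.8 (log2 fold change -0.58, SE 0.15, adjusted p = 0.0411). *EPSTI1* and *IFI6* both stayed below every CRE library in all CRE + VAF347 libraries, yet *IFI6* was called in only 5 of 15 alternative settings. Leaving out 1 library in turn gave *IFI44* log2 fold changes from -0.92 to -0.65 and adjusted p-values up to 0.0638, lost without CRE + VAF347 replicate 1 or 3. It gave *IFI6* log2 fold changes from -0.72 to -0.36 and adjusted p-values up to 0.186, and it was called only when the library left out was CRE replicate 3. *EPSTI1* kept its call, with log2 fold changes from -0.78 to -0.59 and adjusted p-values up to 0.0243. *SP110*, a nuclear body protein, had 30.7, 35.7 and 33.5 CPM under CRE and 26.3, 27.6 and 23.7 CPM with the agonist (log2 fold change -0.36, SE 0.09, adjusted p = 0.0393), and leaving out 1 library in turn gave log2 fold changes from -0.42 to -0.31 and adjusted p-values up to 0.1700.

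The other genes of this group did not pass the test. *IFI44L*, a paralog of *IFI44* beside it on chromosome 1, had the lowest log2 fold change of all 47 genes and also the widest spread. It had 8.39, 22.96 and 16.7 CPM with CRE and 6.404, 11.04 and 4.09 with CRE + VAF347 (log2 fold change -1.17, SE 0.36, adjusted p = 0.08997). CRE replicate 1 of *IFI44L* lay below CRE + VAF347 replicate 2, so the groups overlapped, and without that CRE library the gene was called (log2 fold change -1.47, adjusted p = 0.0211). *IFI27*, a mitochondrial membrane protein and by far the most abundant of the 47 at 2526 TPM, had 473, 589 and 348 CPM with CRE and 442, 418 and 344 with CRE + VAF347. The CRE libraries of *IFI27* spanned a wider range than the CRE + VAF347 libraries and contained all but the lowest of them (log2 fold change -0.23, SE 0.16, adjusted p = 0.445, interval -0.57 to 0.11). *IFI27* passed the adjusted p without CRE replicate 3 (log2 fold change -0.40, adjusted p = 0.0111) and not without CRE replicate 2 (log2 fold change -0.03, adjusted p = 0.925). *PLSCR1*, a scramblase that also restricts viruses, had a log2 fold change of -0.25 (adjusted p = 0.173). *XAF1*, a promoter of cell death, had a log2 fold change of -0.19 (adjusted p = 0.394), and *IFI35* had a log2 fold change of -0.11 (adjusted p = 0.703).

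The interferon-stimulated genes also varied together between libraries of the same group. CRE replicate 1 was the lowest of its group for 34 of the 47 genes and CRE replicate 2 the highest for 33. CRE + VAF347 replicate 3 was the lowest of its group for 43 and CRE + VAF347 replicate 2 the highest for 38. The members' median deviation from the mean of the CRE libraries was -0.14, 0.16 and 0.05 on the log2 scale for CRE replicates 1 to 3. It was -0.35, -0.26 and -0.50 for CRE + VAF347 replicates 1 to 3. Every CRE + VAF347 library thus had a lower median than the lowest CRE library. Over all genes tested, the median deviation of a library from its own group's mean was between -0.0023 and 0.0088. The median SD of log2 CPM within a group was 0.20 for the members, against 0.095 for the 9981 genes tested in the members' range of abundance, of which 1.63% fell. The SD was larger with CRE than with CRE + VAF347 for 34 of the 47 genes. The members' median SD was 0.226 with CRE and 0.152 with CRE + VAF347. For the 9981 genes in the same range of abundance these medians were 0.1001 and 0.0688. The larger SD with CRE was therefore not particular to the members. CRE replicate 1 had the lowest total count of its group and CRE + VAF347 replicate 3 the highest of its group.

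**Figure D4:**
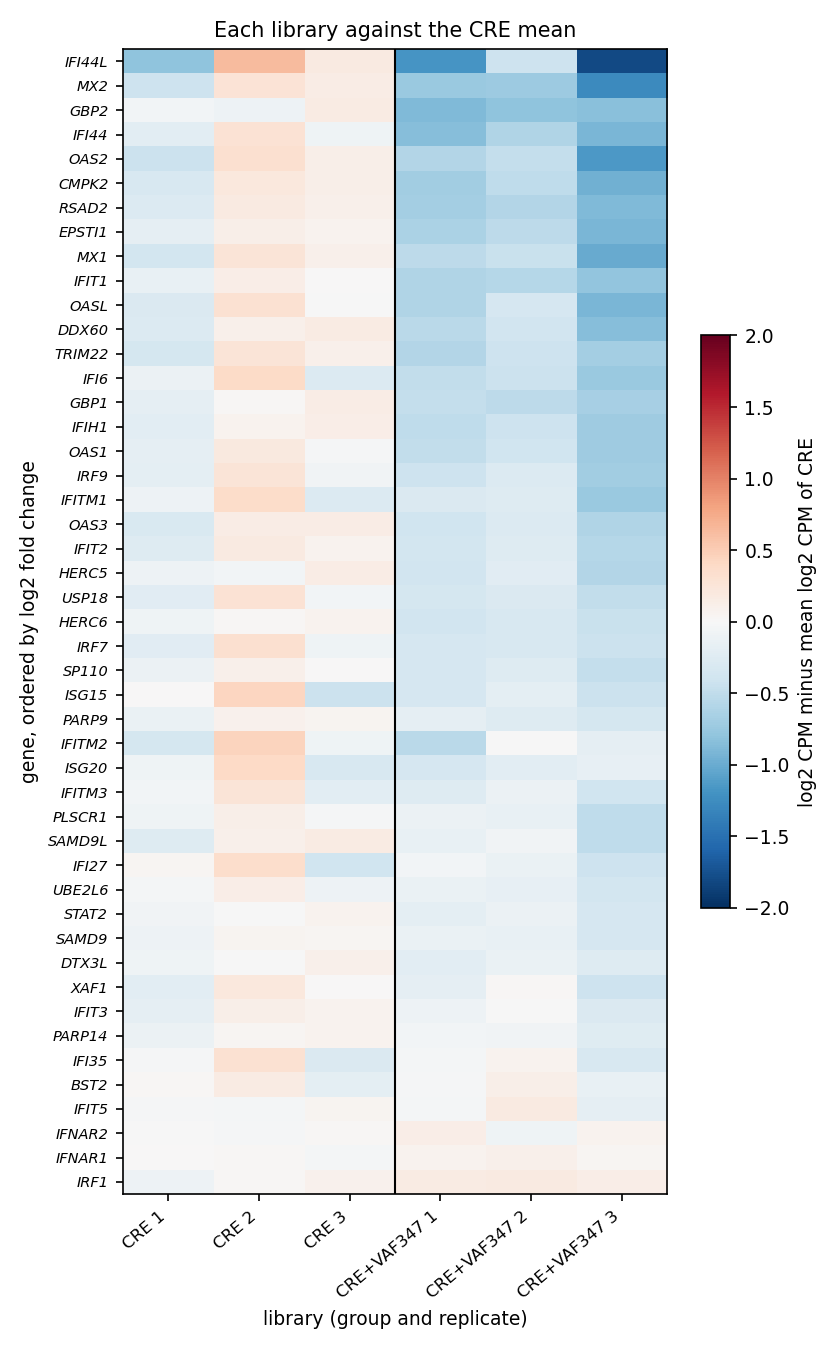
Log2 CPM of each gene (rows, ordered by log2 fold change) in each library (columns) minus the mean log2 CPM of the CRE libraries (colour scale). CRE 2 is the reddest CRE column and CRE 1 the bluest, CRE+VAF347 3 is the bluest column of all, and the lowest rows (*IFNAR2*, *IFNAR1*, *IRF1*) lie between -0.09 and 0.18 in the CRE + VAF347 columns.

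Summed over the 47 genes, the CRE libraries held 6966, 9055 and 7324 TPM and the CRE + VAF347 libraries 6634, 6605 and 5601. The means were 7781 ± 1118 and 6280 ± 588 TPM (SD, n = 3), and the lowest CRE library lay above the highest CRE + VAF347 library. Without *IFI27* the sum in CPM was 5199 ± 556 with CRE and 4176 ± 390 with CRE + VAF347.

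The pathway that drives these genes was described through 35 further genes, of which 27 were tested and 2 were called. Of the 9 interferon ligands, 1 passed the filter. *IFNE*, the epithelial interferon epsilon, had 11, 14 and 17 counts with CRE and 13, 13 and 7 with CRE + VAF347 (log2 fold change -0.24, SE 0.34, adjusted p = 0.739). The other 8 ligand genes had at most 2 counts in every library, and *IFNA2*, *IFNK*, *IFNL3* and *IFNG* had 0 in all 6, so RNA of these ligands was not detectable at this depth (floor of 3 counts). Of 8 receptor and JAK-STAT genes, 0 were called by edgeR or by DESeq2, 1 (*JAK2*, higher) had an unadjusted p under 0.05 with either, and their median log2 fold change was 0.04. The kinases *JAK1* and *TYK2* had log2 fold changes of -0.01 and -0.03 (adjusted p = 0.948 and 0.817).

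Of 10 sensor and adaptor genes, 1 fell and the median log2 fold change was -0.06. The gene that fell was *IKBKE* (ENSG00000263528.8, chromosome 1, 206470476 to 206496889, plus strand), a kinase related to TBK1 that phosphorylates IRF3. It had 46.2, 54.1 and 54.1 CPM with CRE and 34.04, 36.7 and 31.4 with CRE + VAF347, means of 51.5 ± 4.57 and 34.1 ± 2.63 (SD, n = 3; log2 fold change -0.60, SE 0.09, adjusted p = 0.00305), and the groups did not overlap. *IKBKE* was not called with limma on log2(TPM + 1) (log2 fold change -0.49, adjusted p = 0.215). By edgeR, *RIGI* (log2 fold change -0.32, adjusted p = 0.0945), *DHX58* (-0.27, adjusted p = 0.173) and *TICAM1* (-0.45, adjusted p = 0.0910) were also lower at an unadjusted p under 0.05. *MAVS* was higher at that level (0.16, adjusted p = 0.133). Of all genes, 11.9% were lower and 8.87% higher at that level. Of 8 negative regulators, 1 rose, and it was *TIPARP* (ENSG00000163659.13, chromosome 3, 156673235 to 156706770, plus strand). *TIPARP* had 20.2, 18.1 and 23.1 CPM with CRE and 105, 99.2 and 85.8 with CRE + VAF347, means of 20.4 ± 2.53 and 96.5 ± 9.69 (log2 fold change 2.24, SE 0.10, adjusted p = 6.04e-07). The lowest CRE + VAF347 library was far above the highest CRE library, and the log2 fold change stayed between 2.14 and 2.33 in every alternative. *SOCS1* and *SOCS3*, feedback inhibitors of JAK kinases, had log2 fold changes of -0.10 (adjusted p = 0.763) and -0.27 (adjusted p = 0.1002). By edgeR, *SOCS3* was also lower at an unadjusted p under 0.05, and its groups did not overlap. *TIPARP* and *IKBKE* each overlap an antisense gene, *TIPARP-AS1* and *IKBKE-AS1*. Whether *TIPARP* has a part in the lower interferon-stimulated genes was not tested.

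The promoter of *TIPARP* (chr3:156674440-156674589, plus strand) is shown because it is the AhR target of this pathway. Capitals mark the XRE core, which reads CACGC here because it lies on the other strand.
TIPARP: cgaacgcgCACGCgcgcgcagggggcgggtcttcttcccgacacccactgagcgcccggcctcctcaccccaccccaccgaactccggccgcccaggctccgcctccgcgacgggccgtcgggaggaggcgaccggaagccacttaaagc

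**Figure D5:**
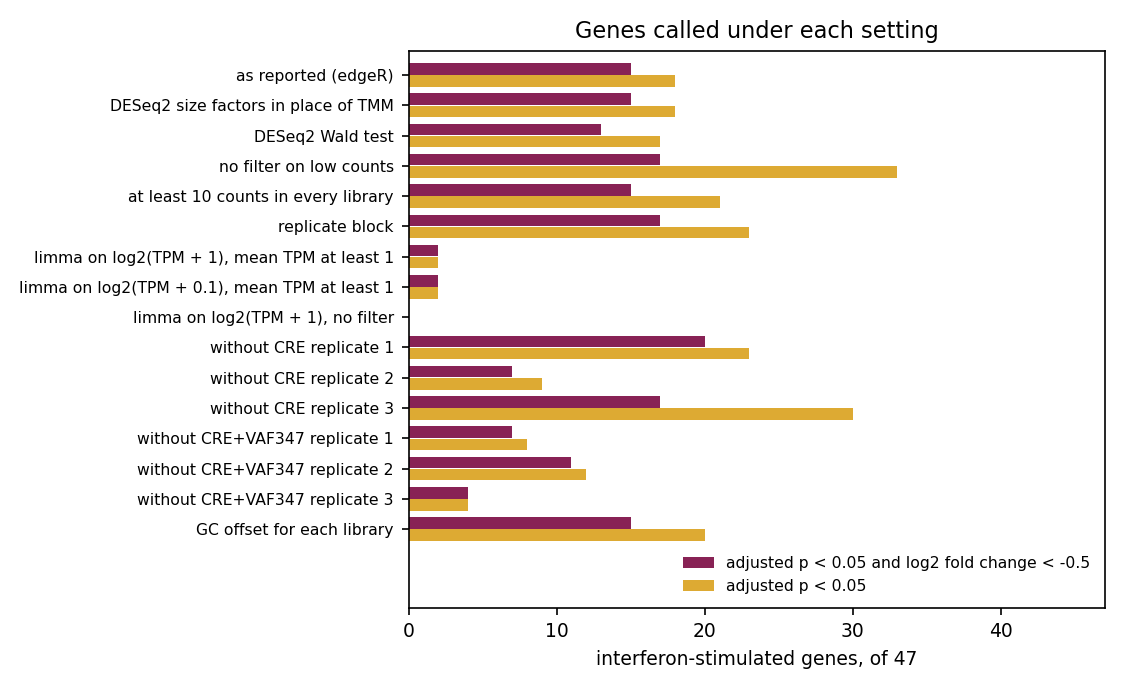
Number of the 47 interferon-stimulated genes (x axis) with an adjusted p under 0.05, with and without the fold threshold, under each analysis setting (y axis). The count of genes that fell is 15 as reported, from 4 to 20 when 1 library is left out, and 2, 2 and 0 with limma on TPM values.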

How the data were processed

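RNA-seq was measured in 3 CRE and 3 CRE + VAF347 libraries of HBECs, grouped and matched to the table columns by the deposited labels, with 0 columns unmatched. The authors prepared poly(A)-enriched RNA and made the expected counts with Salmon, without depth scaling and summed per gene symbol. The deposited TPM values, also from Salmon, correct for transcript length, so they move with the isoforms assigned to a gene. The Salmon version, annotation and strand setting are not given in the sources used here. Per the labels the build is hg38. The 61228 names were compared with GENCODE v44 (GRCh38), and 61228 were found. A further table, the authors' own DESeq2 comparison with log2 fold changes and p-values, was not used.

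The expected counts were rounded, since 14.5% were fractional. In edgeR 4.0.16 (R 4.3.3), low genes were removed by filterByExpr, libraries were scaled by TMM, and the quasi-likelihood p-values of 15373 genes were adjusted by Benjamini-Hochberg. Thresholds were an adjusted p of 0.05 and a log2 fold change of 0.5 in size. The SE is the log2 fold change divided by the square root of F, and intervals are 95% intervals of the model. Totals of 8873160 to 10750283 counts set the counting precision.

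Alternatives were DESeq2 1.42.0 (size factors and Wald test), other low-count filters, the replicate number as a block, limma 3.58.1 on TPM with pseudocounts of 1 and 0.1, and leaving out each library. A GC offset for each library was added after the data were seen. In a simulation of CRE + VAF347 against CRE over 15155 genes, edgeR recovered 79 of 100 genes with a log2 change of 1 and 94 of 100 with a log2 change of 2. It made 7 false calls. Genes were drawn independently and no smaller change was simulated. The recovery therefore does not cover changes near the members' median of -0.39, or genes that vary together between libraries.

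The members and lists were chosen with earlier results of these data known, so no test over the list is given. Values in every library are given for genes that passed the adjusted p, for the member with the highest TPM in each role group, and for *TIPARP* and *CYP1A1*. Of the pathway genes, those with an adjusted p under 0.05, *JAK1* and *TYK2* are named, with the ligand tested and those at 0 in every library. 1 further pathway gene is not reported here. The library values of *IRF9* and *IFI44L*, and *JAK2*, *RIGI*, *DHX58*, *TICAM1*, *MAVS*, *SOCS1* and *SOCS3*, were chosen after their values were seen. Promoters are from RefSeq (GRCh38.p14).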

Additional observations from a re-analysis of the deposited data

How the results depend on the processing

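The median log2 fold change of the 47 genes was negative in all 15 alternatives, and 0 genes were called higher in any of them. Of the 15 genes that fell, 15 were also called with DESeq2 size factors, 12 with DESeq2's Wald test (13 called in all), and 14 with the GC offset added after the data were seen. Of all genes tested, 1.69%, 1.33% and 1.65% fell in these settings, in the same order. With limma on log2(TPM + 1) and log2(TPM + 0.1), 2 genes were called and 2 had an adjusted p under 0.05, and on log2(TPM + 1) with no filter both counts were 0. Of all genes, 0.313%, 0.326% and 0.042% fell in these limma fits. The pathway genes called were then 1 (*TIPARP*) in place of 2. With no filter on low counts 33 genes had an adjusted p under 0.05, against 18. These counts are not comparable, since edgeR's p-values were far smaller in that setting at nearly the same fold changes. For *MX1* the adjusted p was 2.72e-18 (log2 fold change -0.67), against 0.0348 (-0.66) with the filter. Leaving out 1 library in turn gave 4 to 20 genes called, 4 to 30 with an adjusted p under 0.05, and medians from -0.45 to -0.24. The share of all genes that fell was then between 0.918% and 1.73%. The lowest counts came without CRE + VAF347 replicate 3 and the median nearest 0 without CRE replicate 2. With the replicate number as a block, 17 genes were called (1.57% of all genes fell) and 23 had an adjusted p under 0.05. The share of all genes with an adjusted p under 0.05 at any fold is not given for the alternatives. The members' counts at that level therefore cannot be set against it. Same-numbered libraries correlated by 0.053, 0.033 and 0.015 in their deviations from the group means, so the numbers were not taken as pairs. Of 705 single-gene values under alternatives, 545 kept their side of that threshold and their direction, 99 lost an adjusted p under 0.05, 51 gained one and 10 changed sign, none of them a gene that fell. The sign changes were in *BST2* (-0.12 to 0.057 when 1 library was left out, 0.0024 with the GC offset), *IFI35* (-0.24 to 0.064 when 1 library was left out), *IFIT5* (-0.12 to 0.075), *IFNAR2* (-0.016 to 0.090, and -0.016 with the GC offset) and *IFNAR1* (-0.025 with the GC offset). The causes were not tested. The median transcript GC content was 44.7% for the genes that fell, 47.7% for all members and 50.1% for all genes tested. Depth limits the ligand genes, where up to 2 counts cannot show a difference.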

Other observations

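Of the 47 genes, 27 lie in 11 clusters in which neighbours are at most 200000 bases apart (GRCh38), and the estimates within a cluster differed to unequal degrees. The *CMPK2* and *RSAD2* pair on chromosome 2 (6840570 to 6898239) had log2 fold changes of -0.74 and -0.74, and *HERC6* and *HERC5* on chromosome 4 (88378739 to 88506163) had -0.39 and -0.40. The 4 IFIT genes on chromosome 10 (89283694 to 89421605) spanned the widest range, 0.66 on the log2 scale, from -0.66 for *IFIT1* to -0.0042 for *IFIT5*. On chromosome 21, the receptor genes *IFNAR2* and *IFNAR1* (33205282 to 33359864) had 0.04 and 0.07, while *MX2* and *MX1* (41361999 to 41470071) had -0.94 and -0.66. These values are given as a description, since neighbours can share reads, and the differences between neighbours were not tested.

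Of the endothelial markers, *CDH5* and *VWF* fell (log2 fold change -0.84 and -1.45, adjusted p = 0.00119 and 0.0107), with *PECAM1* at 0 to 3 counts in every library.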
